A study of Mus musculus with 18 samples.

Results

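The genes described here encode the proteins of the cytosolic ribosome. They were taken from the gene count table of the study by name: protein-coding mouse genes with a symbol made of Rpl, Rps, Rpsa or Rplp and a number, with 2 genes left out by the rule, which gave 81 members of 53468 genes. Of the members, 31 belong to the small (40S) subunit and 50 to the large (60S) subunit, and 6 are paralogs of another member (Rpl3l, Rpl7l1, Rpl10l, Rpl22l1, Rpl39l and Rps27l), which leaves 75 core genes. The libraries came from forebrain, midbrain and hindbrain of mice killed at postnatal day 25. Fmr1CRE mice carry 1 nucleotide change, knocked in with CRISPR/Cas9 at the mouse position of a human regulatory variant of Fmr1, on a C57BL/6 background. The other mice were wild type and of the same litter. Each genotype had 3 mice, and each mouse gave 1 poly(A) RNA library per region, so that 18 libraries fell into 6 groups of 3. Which of the independent Fmr1CRE lines these mice came from was not given in the sources used here. The knock-in is present in every tissue, and the regions are whole dissected pieces that hold many cell types, so fewer cells of a type and less RNA per cell cannot be told apart in any result below.

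A ribosome reads a messenger RNA with its small subunit and joins amino acids with its large subunit. Each subunit is built from ribosomal RNA and a single copy of nearly every one of these proteins, and the genes are therefore usually made at matched amounts. Most ribosomal protein mRNAs are short, abundant and carry a terminal oligopyrimidine start, a run of pyrimidines that begins with a C at the cap and through which the mTOR pathway sets their translation. In brain, where FMRP, the protein of Fmr1, binds ribosomes and messages, these mRNAs are among the transcripts that neurons send into their processes.

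The start of the message is the sequence feature that the genes are known to share, so the windows of a few members are shown first. They run from 10 bases before to 20 bases from the annotated first transcribed base, on the GRCm38.p6 build, from the RefSeq promoter table. Capitals mark an unbroken run of pyrimidines that begins with a C at the first transcribed base, which is the letter after the first 10. The first 6 members carry a run of at least 5, and Rps2, Rps27l and Rpl22l1, which stand out between regions further down, do not.
Rpl15 (chr14:18270967-18270996, minus strand): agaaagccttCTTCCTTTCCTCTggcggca
Rpl35 (chr2:39005112-39005141, minus strand): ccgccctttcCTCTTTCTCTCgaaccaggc
Rps6 (chr4:86857348-86857377, minus strand): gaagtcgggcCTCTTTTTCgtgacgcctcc
Rps18 (chr17:33955646-33955675, minus strand): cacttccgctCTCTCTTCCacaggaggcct
Rps10 (chr17:27635225-27635254, minus strand): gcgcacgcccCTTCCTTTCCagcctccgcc
Rplp2 (chr7:141447641-141447670, plus strand): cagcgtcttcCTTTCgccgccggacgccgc
Rps2 (chr17:24720053-24720082, plus strand): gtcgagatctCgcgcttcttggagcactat
Rps27l (chr9:66946076-66946105, plus strand): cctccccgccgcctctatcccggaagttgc
Rpl22l1 (chr3:28805498-28805527, plus strand): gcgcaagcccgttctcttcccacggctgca
A run of at least 5 was found at an annotated start of 12 of the 62 members that have a window, or 19.4%, and of 436 of 16401 other protein-coding genes, or 2.66%. Over every gene of the table the share was 3.01%, and none of the 6 paralogs had one. The search read the strand of the gene and only its annotated first base, so an annotated start that lies a few bases off the true one is read as no run, and no match says only that these letters are not at that base.

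The libraries held 22455512 to 28061185 counts each, with 1.13% of all counts on the 81 members. Marker genes were set against the region labels. Hindbrain Hox genes summed to 75.6 to 102 CPM (counts scaled by library size, with trimmed-mean factors over all libraries) in hindbrain libraries and to at most 4.01 in the others. Forebrain markers such as Neurod6 summed to 258 to 353 CPM in forebrain, 170 to 254 in midbrain and at most 11.6 in hindbrain libraries, so the pieces labelled midbrain carried forebrain transcripts at a level close to that of the forebrain pieces. Midbrain markers such as En1 summed to 38.6 to 71.6 CPM in midbrain, 32 to 56.8 in hindbrain and at most 7.26 in forebrain libraries. Their sum thus did not separate midbrain from hindbrain, and of these 6 genes 4 were called higher and 2 lower in midbrain than in hindbrain. Both forebrain libraries of replicate 3 had deviations from their group means that correlated weakly and negatively with those of the same mouse's other regions. Pearson r across genes, which are not independent replicates, was -0.16 to -0.06. Those of replicate 1 gave 0.07 to 0.22 and those of replicate 2 -0.05 to 0.20. Libraries of both genotypes that share only a region and a replicate number gave -0.23 to 0.13. Whether the 2 forebrain libraries of replicate 3 carry each other's label was not tested. The counts of called members that use them are also given without them. In that setting the forebrain calls of the genes named for the size of their fold change held, with the exceptions of Rpl22l1 against hindbrain (adjusted p = 0.0918; 0.0911 relative to summed member counts) and of Rplp1 (0.0565) and Rpl6 (0.0791) against midbrain relative to summed member counts. Sequencing was done in 2 pools of 9 libraries but the labels assign no library to a pool, and a difference between pools was not tested.

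Many ribosomal protein genes have close copies in the genome, and 50-base reads can be split between them. Of all 31-base sequences in a member's transcripts, a median of 66.6% also occurred in another gene, and 58 of the 81 members shared over 50%. Near-identical copies were found for 44 members, 128 copies in all, and they held counts that came to 17.9% of those of the members. For 13 members the copies held more counts than the member. Rps27, a zinc-finger protein of the small subunit, had 1143 counts over the 18 libraries, while its copy Rps27rt had 46921. Rps12 had 4698 counts and its copies 73394, and Rpl13 had 24253 and its copies 86328. How the reads were split between a member and its copies cannot be checked from the counts, so each region and genotype comparison was also made with the copies summed into the member.

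**Figure D1:**
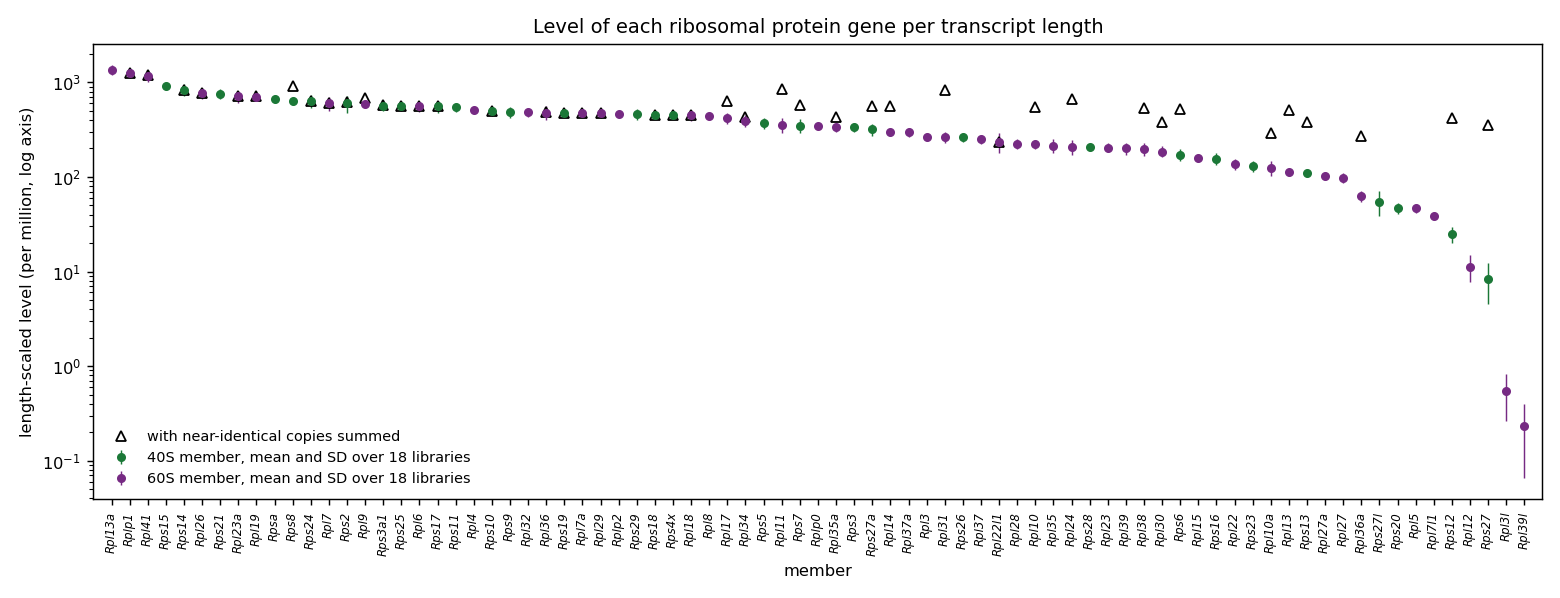
Length-scaled level of each member (log axis) in order of the mean over 18 libraries, with points and bars for the mean and SD, green for 40S and purple for 60S genes, and triangles for the mean with near-identical copies summed in. Rpl10l, at 0 counts, and 1 other member are not drawn. Rpl13a, Rplp1 and Rpl41 lie at the upper end, Rps27, Rpl12 and Rps12 at the lower end of the core members, and Rpl3l and Rpl39l lie below all core members.

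Levels per length spanned a wide range among genes whose proteins are mostly used in equal number. On a scale of counts divided by transcript length and scaled to the same sum in every library, Rpl13a, a 60S protein (chr7:45125558-45128761, mm10), had the highest mean, 1361 ± 177 (SD, n = 18). Rplp1, an acidic protein of the stalk that recruits translation factors, followed with 1252 ± 139. Rpl41, the smallest protein of the ribosome, had 1168 ± 165. The spreads of these 3 neighbours in the order overlapped, and differences between them within a library were not tested. Rps15, a 40S protein that lies near the decoding site, had 921 ± 92.3, and Rps14, a 40S protein needed for assembly of the subunit, had 839 ± 114, and these also overlapped. The median of the 75 core members was 372, with quartiles of 203 and 557, and the median was 458 for the 30 core genes of the 40S subunit and 336 for the 45 of the 60S subunit.

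At the low end, Rpl10l, a retrogene used in male germ cells, had 0 counts in all 18 libraries, which allows up to 0.00652 CPM (3 counts, counting error only) over the pooled counts. Rpl39l, also a germ-cell form, averaged 0.23 ± 0.17, and Rpl3l, the form of heart and skeletal muscle, 0.54 ± 0.28. Rps27 (8.39 ± 3.9), Rpl12 (11.3 ± 3.55) and Rps12 (25 ± 4.87) were the lowest core genes when copies were left out. Rps27 stood at 352 and Rps12 at 416 once copies were summed in, while Rpl12 stayed at 11.3. With copies summed into their members, the core median rose to 476 and the ratio of the highest to the lowest core gene fell from 162 to 121. That ratio is then set by Rpl12, for which 98% of the estimated reads lay on transcripts annotated as non-coding. For 22 members more than 50% of reads lay on non-coding transcripts of the gene.

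The other paralogs were expressed in brain. Rpl22l1 stood at 233 ± 55.5, above its parent Rpl22 at 136 ± 19. Rps27l, a relative of Rps27 that p53 can induce, had 54.5 ± 15.7, above the 8.39 of Rps27 alone and below the 352 of Rps27 with its copies summed in. Rpl7l1, which is known from the assembly of the large subunit, had 38.8 ± 4.04, against 603 ± 101 for Rpl7.

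**Figure D2:**
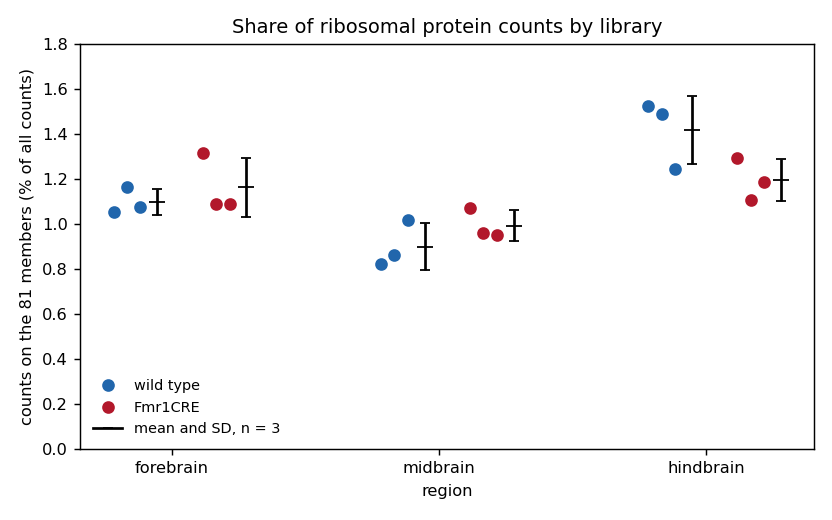
Share of all counts that lay on the 81 members (percent) by region, with each library as a point and the mean and SD (n = 3) of each genotype. Midbrain libraries sit between 0.82 and 1.07%, below every hindbrain library (1.11 to 1.52%).

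As a share of all counts, the members took 1.13% ± 0.098 of the forebrain libraries, 0.946% ± 0.093 of midbrain and 1.31% ± 0.17 of hindbrain (SD, n = 6 libraries of both genotypes). Forebrain libraries ran from 1.05 to 1.31%, with or without both libraries of replicate 3, midbrain from 0.82 to 1.07% and hindbrain from 1.11 to 1.52%. Midbrain and hindbrain did not overlap, forebrain and midbrain overlapped at 1 edge, and forebrain and hindbrain overlapped over much of their range. By genotype the means were 1.16% ± 0.13 for Fmr1CRE and 1.10% ± 0.06 for wild type in forebrain, 0.992% ± 0.067 and 0.899% ± 0.1 in midbrain, and 1.20% ± 0.093 and 1.42% ± 0.15 in hindbrain (n = 3 each).

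Midbrain and hindbrain differed in nearly all members. Of 79 members tested, 73 were lower in midbrain and none was higher by edgeR's quasi-likelihood test with Benjamini-Hochberg adjustment over all genes at 0.05, where 24% of all genes tested were called lower and 25.1% higher. The median log2 fold change over the members was -0.40 (midbrain minus hindbrain), against -0.03 over all genes. Rps27l (chr9:66946086-66949516) moved most: it had 9.33, 10.4 and 13.3 CPM in midbrain (lowest, median and highest of 6) and 18.5, 20.3 and 25.3 in hindbrain, a difference of -0.97 (SE 0.11, adjusted p = 3.04e-06). Every midbrain library lay below every hindbrain library.

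Rpl7, which sits on the outer side of the large subunit (chr1:16101295-16104662), had 199, 215 and 230 CPM in midbrain and 295, 330 and 377 in hindbrain, and was lower, at a log2 fold change of -0.62 (SE 0.06, adjusted p = 6.48e-07) with no overlap. Rps7, a 40S protein that can also bind Mdm2, had 70, 87.8 and 101 against 108, 138 and 156 CPM, a difference of -0.61 (adjusted p = 0.00029). Rpl36 gave 78.1, 83.8 and 89 against 106, 124 and 148 CPM, or -0.60 (adjusted p = 2.22e-05). For Rpl22l1 the difference was -0.63 (adjusted p = 0.00212), with overlapping ranges of 47.5 to 64.8 and 50.2 to 104 CPM, and this call was lost in Fmr1CRE libraries only (-0.42, adjusted p = 0.193) and with the trend with transcript length removed (-0.26, adjusted p = 0.0882).

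The 6 members that did not pass in this comparison were Rpl12, Rpl15, Rpl29, Rpl3l, Rps2 and Rps27, named here because they are so few. Rps2 was the only member with a positive value (0.08, SE 0.062, adjusted p = 0.271).

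Forebrain lay above midbrain in the same kind of broad shift. Here 56 of 79 members were called higher in forebrain and none lower, where 9.38% of all genes were called higher and 9.96% lower. All 79 fold changes were positive, where 53.1% of all genes were, with a median of 0.31 against 0.02 over all genes. Rps2, which lines the channel through which the messenger enters the 40S subunit (chr17:24718116-24721929), had the largest called change: 407, 435 and 456 CPM in forebrain against 242, 293 and 318 in midbrain, a difference of 0.60 (SE 0.062, adjusted p = 9.42e-06). Rpl41 had 307, 354 and 389 against 203, 239 and 265 CPM, or 0.57 (adjusted p = 0.000137). Rps14 (0.49, adjusted p = 0.000889), Rplp1 (0.47, adjusted p = 0.000174) and Rps12 (0.56, adjusted p = 0.0117, at 10.9 against 7.92 CPM in the median library) completed the upper end. Rpl7l1 had the smallest value, 0.00 (SE 0.075, adjusted p = 0.999). Without both forebrain libraries of replicate 3, 53 members were called, all higher.

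Forebrain and hindbrain differed in fewer members, and in both directions. Of the 79, 6 were higher in forebrain and 21 lower, or 27 in all, where 51.7% of all genes were called, 26.4% higher and 25.3% lower. The median was -0.12. Rps2 was again the member with the largest increase: its 407 to 456 CPM in forebrain lay above the 230, 275 and 289 CPM of hindbrain, a difference of 0.68 (SE 0.062, adjusted p = 1.64e-07). Rpl29 (154, 167 and 181 against 124, 134 and 158 CPM) was higher by 0.28 (adjusted p = 0.00118). Rpl41 (0.24, adjusted p = 0.0159), Rplp1 (0.21, adjusted p = 0.0128) and Rps15 (0.19, adjusted p = 0.0144) were higher by less, with overlapping ranges. With the mouse as a block the last 3 gave adjusted p-values of 0.0625, 0.0502 and 0.065, and 19 members were called, 2 higher and 17 lower.

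Lower in forebrain than in hindbrain were Rps27l (-0.65, SE 0.11, adjusted p = 0.000102), Rpl7 (-0.41, adjusted p = 3.34e-05), Rpl22l1 (-0.39, adjusted p = 0.0358), Rpl11 (-0.37, adjusted p = 0.00354) and Rpl24 (-0.36, adjusted p = 0.00381). Rpl11 carries the 5S RNA together with Rpl5 and can bind Mdm2, and Rpl24 forms a bridge between the subunits. Rps27l ran from 11.8 to 15.9 CPM in forebrain and Rpl7 from 236 to 273, with no forebrain library reaching the hindbrain range for either gene. The call for Rpl22l1 was lost when 9 of the 18 libraries were left out in turn, with an adjusted p of 0.129 without the hindbrain library of Fmr1CRE replicate 1. Without both forebrain libraries of replicate 3, 22 members were called, 6 higher and 16 lower.

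**Figure D3:**
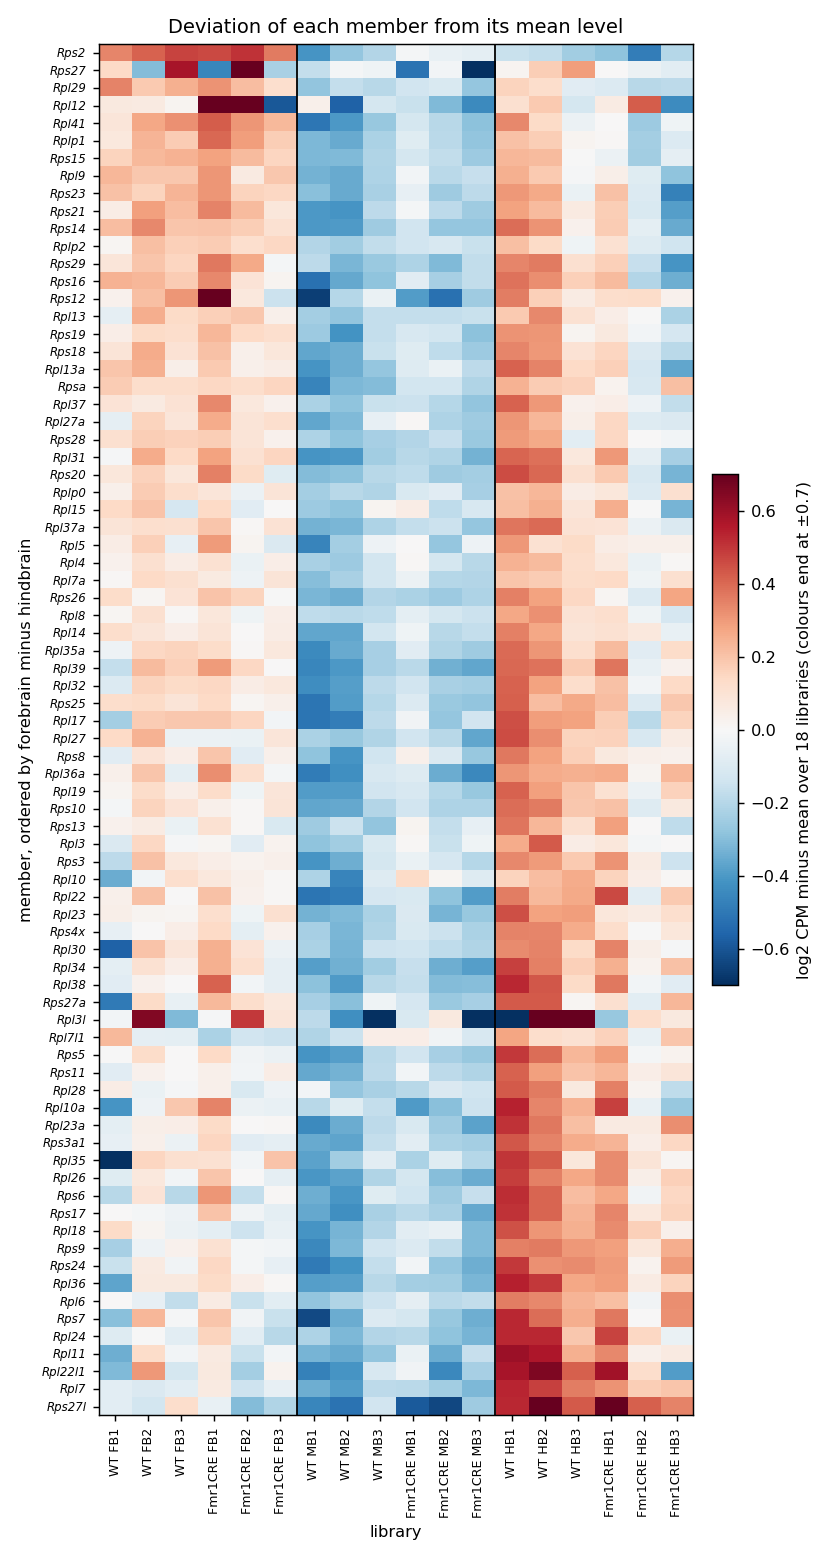
Deviation of the tested members, 1 of them not drawn (rows, ordered by the difference between forebrain and hindbrain) from its mean log2 CPM over the 18 libraries (columns, by region and genotype). Midbrain columns are low for nearly all members, and Rps2 and Rps27l form the opposite ends of the order.

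Because the members shifted together, a second fit set the library size to the summed counts of all members, which shows which of them departed from the common shift. Between forebrain and hindbrain 25 of 79 then differed, 10 higher and 15 lower, where 48.2% of all genes were called on this scale, 27.7% higher and 20.5% lower, and 20 did (8 higher, 12 lower) without both forebrain libraries of replicate 3. Rps2 was higher by 0.75 (adjusted p = 1.88e-07), Rpl29 by 0.35 (adjusted p = 0.000437) and Rpl41 by 0.31 (adjusted p = 0.000667). Rps27l (-0.58, adjusted p = 0.000177), Rpl7 (-0.34, adjusted p = 0.000163) and Rpl22l1 (-0.32, adjusted p = 0.0451) were lower, and the call for Rpl22l1 was lost in 13 of the 18 fits that left out 1 library.

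Between midbrain and hindbrain 11 members departed from the shift, 3 higher and 8 lower, where 53.7% of all genes were called, 46.3% higher and 7.4% lower. Rps2 (0.47, adjusted p = 2.54e-05), Rpl29 (0.24, adjusted p = 0.00692) and Rplp2 (0.18, adjusted p = 0.0162), a stalk protein, were higher. Rps27l (-0.58, adjusted p = 0.00015), Rpl7 (-0.23, adjusted p = 0.00282) and Rps7 (-0.23, adjusted p = 0.0353) were lower. The call for Rps7 was lost in 8 of the 18 fits without 1 library, with an adjusted p of up to 0.1, and with copies summed it gave -0.14 (adjusted p = 0.108). Between forebrain and midbrain 7 members did so, where 40.5% of all genes were called, 2.67% higher and 37.9% lower, and 4 did without both forebrain libraries of replicate 3. Rps2 (0.28, adjusted p = 0.00418), Rpl41 (0.25, adjusted p = 0.00503) and Rplp1 (0.15, adjusted p = 0.0467) were higher, and Rpl7l1 (-0.31, adjusted p = 0.00673), Rpl10 (-0.22, adjusted p = 0.0427), Rpl6 (-0.21, adjusted p = 0.0285) and Rpl3 (-0.18, adjusted p = 0.0377) were lower. In this last comparison the calls for Rplp1, Rpl10 and Rpl6 were lost in 16, 13 and 6 of the 18 fits without 1 library, and with the mouse as a block Rplp1 gave an adjusted p of 0.103.

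By position in the ribosome, members of 1 structure did not always move by the same amount. Of the stalk, Rplp1 and Rplp2 gave 0.21 and 0.10 between forebrain and hindbrain and Rplp0, which anchors them, gave -0.02 (adjusted p = 0.8). All 3 were lower in midbrain than in hindbrain (-0.25, -0.21 and -0.27). Of the 5S particle, Rpl11 was lower in forebrain than in hindbrain while Rpl5 gave -0.04 (adjusted p = 0.718). In the messenger channel, Rps3, which lines it together with Rps2, gave -0.14 (adjusted p = 0.172) where Rps2 gave 0.68. Along the exit tunnel, Rpl4, Rpl17, Rpl39, Rpl23a, Rpl35 and Rpl26 were all lower in midbrain than in hindbrain (-0.26 to -0.57), and of these Rpl23a (-0.24, adjusted p = 0.0157) and Rpl26 (-0.26, adjusted p = 0.00776) also fell in forebrain against hindbrain. The differences between genes of 1 structure were not themselves tested.

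Rps6, whose protein is phosphorylated by the S6 kinases under mTOR, was lower in forebrain (-0.27, adjusted p = 0.0231) and midbrain (-0.49, adjusted p = 0.000544) than in hindbrain. Rpsa, also known as the laminin receptor, gave 0.02 (adjusted p = 0.803) and -0.38 (adjusted p = 8.44e-05). Rps27a, which is made as a fusion with ubiquitin, gave -0.18 (adjusted p = 0.151) and -0.39 (adjusted p = 0.00558). The 4 members on the X chromosome, Rpl10, Rpl36a, Rpl39 and Rps4x, were lower in midbrain than in hindbrain (-0.25, -0.54, -0.55 and -0.40), all past the threshold, and of these only Rps4x passed between forebrain and hindbrain (-0.17, adjusted p = 0.0141). Subunits differed little as a whole: between midbrain and hindbrain the median was -0.38 for 40S and -0.41 for 60S genes, and between forebrain and midbrain 0.35 and 0.30. Members with a pyrimidine run at the annotated start (n = 12) had a median of -0.35 between midbrain and hindbrain and those with a window but no run (n = 48) -0.40, and 0.31 each between forebrain and midbrain. The set with no run includes members whose annotated start is not a C but lies inside a longer pyrimidine tract, such as Rpl7a (21 bases) and Rpl27a (20). The 2 sets thus do not cleanly separate genes with and without such a start.

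Ribosomal genes outside the naming rule were read beside the members. Fau, whose product is a fusion of a ribosomal protein with a ubiquitin-like protein, and Rack1, a scaffold on the 40S subunit, were higher in forebrain than in midbrain (0.35 and 0.38). Both were lower in midbrain than in hindbrain (-0.49 and -0.40), and so was Rpl36al (-0.58), which gave 0.10 (adjusted p = 0.334) between forebrain and midbrain. Of 14 translation factors, 4 were higher and 6 lower in midbrain than in hindbrain, where 49.1% of all genes were called. In forebrain 4 were higher and none lower than in midbrain, where 19.3% of all genes were called, and 2 were higher and 3 lower than in hindbrain, where 51.7% were. Pabpc1, the poly(A)-binding protein, was higher in forebrain than in hindbrain by 1.02 (adjusted p = 5.71e-08) and Eef1a2, the neuronal and muscle form of elongation factor 1A, by 0.46 (adjusted p = 0.00291), while Npm1, a nucleolar chaperone of ribosome assembly, was lower (-0.68, adjusted p = 1.51e-06).

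**Figure D4:**
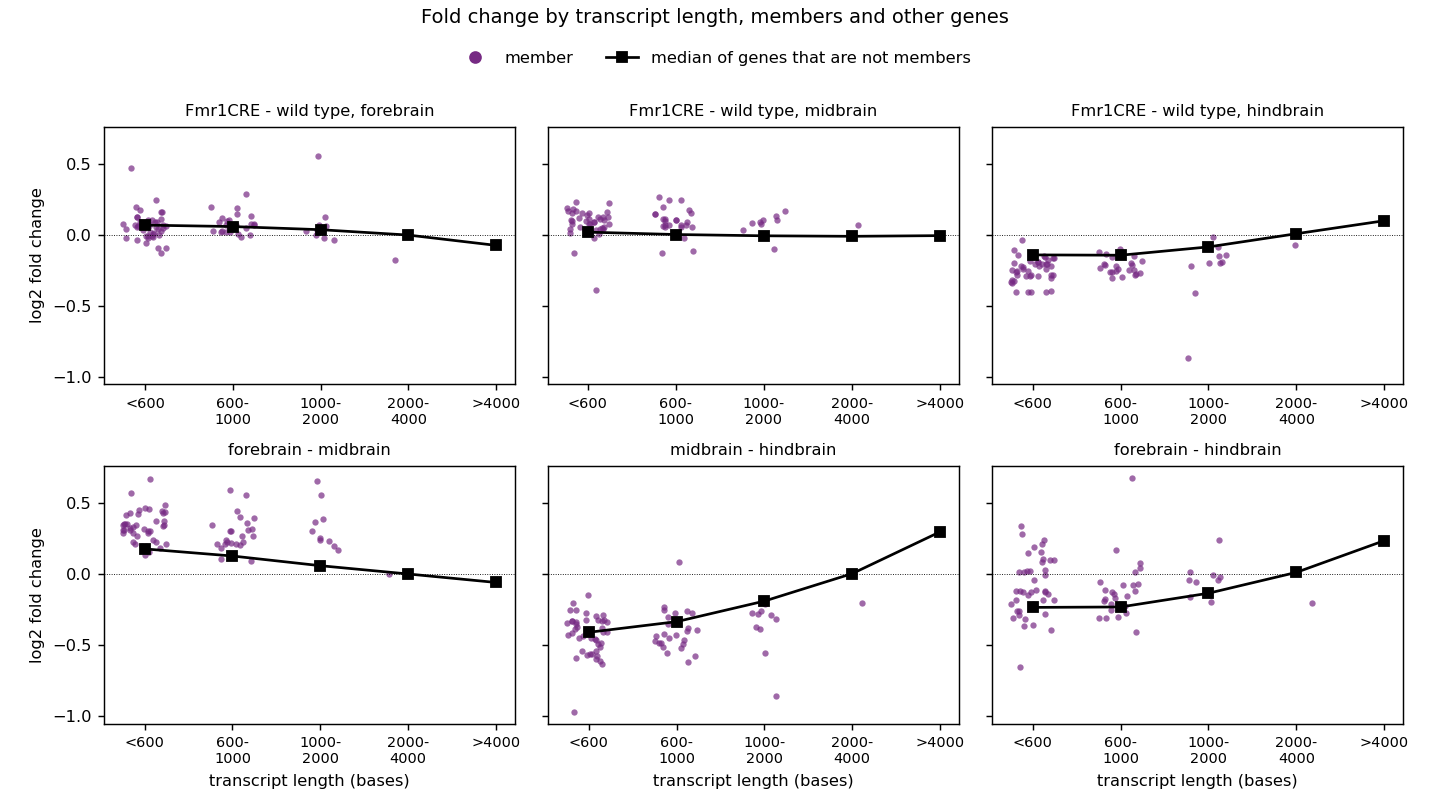
Log2 fold change of each member (points) and median of genes that are not members (squares) by transcript length bin (bases) in the 3 region and 3 genotype comparisons. The medians of other genes rise with length between midbrain and hindbrain, from -0.41 under 600 bases to 0.30 over 4000 bases.

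Members are short, with a median transcript length of 561 bases and 69 of 81 under 1000, and length moved with the region differences in all genes. Between midbrain and hindbrain, genes that are not members had a median of -0.41 under 600 bases (1043 genes) and 0.30 over 4000 bases (4730 genes), where the 43 members under 600 bases had -0.41. Between forebrain and midbrain the corresponding values were 0.18 and -0.06 against 0.34 for the short members, and between forebrain and hindbrain -0.23 and 0.24 against -0.12. After the trend with length was taken out of each library, an alternative added after the data were seen, 30 members were called between midbrain and hindbrain (25 lower and 5 higher, median -0.08) and 46 between forebrain and midbrain, all higher (median 0.20), while between forebrain and hindbrain the direction turned, with 28 higher and 3 lower and a median of 0.11. Rps2 stayed higher in forebrain in that fit (0.85 and 0.53 against hindbrain and midbrain), and Rps27l and Rpl7 stayed lower in forebrain (-0.40 and -0.20) and in midbrain (-0.59 and -0.32) than in hindbrain, whereas Rpl22l1, Rpl11 and Rpl24 lost their calls against hindbrain in forebrain. What the trend with length comes from was not tested.

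Other short mRNAs moved beside the members. Of 32 genes for nuclear-encoded subunits of oxidative phosphorylation, 30 were lower in midbrain than in hindbrain (median -0.64), 25 were lower in forebrain than in hindbrain, and 13 were higher in forebrain than in midbrain. Of 78 mitochondrial ribosomal protein genes, 60 were lower and 1 was higher in midbrain than in hindbrain (median -0.40), and 52 were lower in forebrain than in hindbrain. Only 7 were higher in forebrain than in midbrain, with 2 lower. Of 13 genes of the mitochondrial genome, 12 were higher in forebrain than in midbrain, 12 lower in midbrain than in hindbrain, and 1 higher in forebrain than in hindbrain. Over all genes, 24% were called lower in midbrain and 25.3% in forebrain than in hindbrain, and 9.38% higher in forebrain than in midbrain. Cell-type markers also moved: the 6 choroid plexus genes, all lower in midbrain than in hindbrain (median -2.29), summed to 367 to 870 CPM in forebrain, 170 to 484 in midbrain and 913 to 3253 in hindbrain libraries, and the 5 globin and erythroid genes to 506 to 1547, 442 to 1021 and 1058 to 2709. All 8 oligodendrocyte markers were lower in forebrain than in hindbrain, at 13811 to 17724 against 31344 to 43803 CPM. All 6 cerebellar granule neuron genes were lower in forebrain and in midbrain than in hindbrain (medians -3.53 and -1.07). Microglia genes went the other way: 6 of 6 were higher in forebrain and 4 in midbrain than in hindbrain, where 26.4% and 25.1% of all genes were. Astrocyte and neuron genes were called in both directions against hindbrain. The part of these cells in the member differences was not tested.

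The genotypes were compared within each region. No member passed in any region: 0 of 78 in forebrain, where 0% of all genes were called, 0 of 78 in midbrain, where 0.00543% were called, and 0 of 79 in hindbrain, where 0% were called (edgeR's quasi-likelihood test). DESeq2 also called 0 members in each region. At an unadjusted p under 0.05, there were 0 members in forebrain against 5.43% of all genes, 2 in midbrain against 6.17%, and 14 in hindbrain against 5.13%. Members shift together within a library, so counts of members here and below are not counts of independent events.

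**Figure D5:**
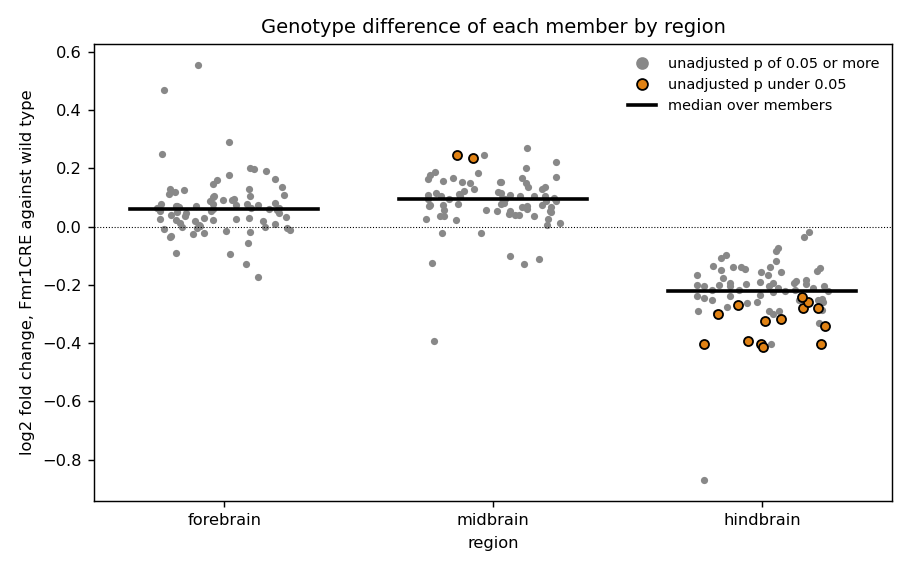
Log2 fold change of each member between Fmr1CRE and wild type in each region, with members as points, those with an unadjusted p under 0.05 in orange, and the median as a line. Forebrain has a median of 0.06 and midbrain of 0.09, while the hindbrain median is -0.22 with no value above 0.

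The signs of the genotype values nevertheless ran together within a region. In hindbrain 79 of 79 were negative, where 51.7% of all genes were, with a median of -0.22 against -0.01 over all genes. Groups of 3 did not overlap for 17 members, all lower in Fmr1CRE, where 5.69% of all genes did so in that direction. The members' share of all counts did overlap between the genotypes, at 1.11 to 1.29% in Fmr1CRE and 1.24 to 1.52% in wild type. Rps4x had 269, 247 and 261 CPM in Fmr1CRE and 315, 314 and 296 in wild type, a difference of -0.26 (SE 0.097) without overlap. Rpl23, a 60S protein that can bind Mdm2, had 98.4, 97.1 and 101 against 127, 113 and 114 CPM, or -0.27 (SE 0.1), also without overlap, and both had an adjusted p of 0.875.

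Beside the hindbrain values, genes that are not members had a median of -0.14 under 600 bases and 0.10 over 4000 bases, and with the trend with length taken out the median over members was -0.07, with 66 negative and 13 positive. Oxidative phosphorylation genes were negative in 31 of 32 and mitochondrial ribosomal genes in 71 of 78. Choroid plexus genes summed to 1414, 1371 and 1390.3 CPM in the hindbrain of Fmr1CRE mice and to 3253, 2625 and 913 in wild type, and the members' share of counts was 1.29, 1.11 and 1.19% against 1.52, 1.49 and 1.24% in the same libraries. Cerebellar granule neuron genes were positive in 6 of 6 (median 0.34), with sums of 676 to 1492 CPM in Fmr1CRE and 693 to 1007 in wild type. Endothelial genes were positive in 0 of 5 (median -0.11). Whether these cells account for part of the values was not tested.

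In midbrain 71 of 78 values were positive, where 49% of all genes were, with a median of 0.09, and 7 members were higher without overlap, where 6.41% of all genes were. Rpl13a had 353, 365 and 331 CPM in Fmr1CRE and 283, 297 and 311 in wild type, a difference of 0.23 (SE 0.086, unadjusted p = 0.0271 by edgeR, adjusted p = 0.803). Rps2 had 318, 310 and 307 against 242, 267 and 279 CPM, or 0.25 (SE 0.09, unadjusted p = 0.0272 by edgeR, adjusted p = 0.803), and Rpsa had 331, 331 and 312 against 263, 291 and 293, or 0.20 (SE 0.087, adjusted p = 0.806). All 3 were separated between the groups. Choroid plexus genes were positive here in 6 of 6, with sums of 315, 484 and 223 CPM in Fmr1CRE against 171, 170 and 331 in wild type, and other genes under 600 bases had a median of 0.02. Microglia genes were positive in 6 of 6 and ependymal genes in 5 of 5. Cerebellar granule neuron genes were positive in 0 of 6 (median -0.26), with sums of 262 to 591 CPM in Fmr1CRE and 306 to 549 in wild type.

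In forebrain 61 of 78 values were positive, where 50.1% of all genes were, with a median of 0.06. Genes that are not members had a median of 0.07 under 600 bases, where the 43 members of that length had 0.06. Choroid plexus genes were positive here in only 2 of 6 (median -0.29), with sums of 367 to 870 CPM in Fmr1CRE and 636 to 749 in wild type. Microglia genes were positive in 1 of 6 and endothelial genes in 0 of 5. Cerebellar granule neuron genes were positive in 4 of 5, ependymal genes in 3 of 5 and oxidative phosphorylation genes in 28 of 32. The part of these cells was not tested. The direction over the members rested on 1 library: without the forebrain library of Fmr1CRE replicate 1 the median was -0.02, with 31 positive and 48 negative, while without both libraries of replicate 3 it was 0.11. Only 2 members were separated between groups, both lower, where 5.99% of all genes were. Rpl7l1 was 1 of these, with 41.7, 44.3 and 43.6 CPM in Fmr1CRE and 56.8, 46.5 and 46.3 in wild type (-0.17, SE 0.12, adjusted p = 0.813). Rps27a had 134, 124 and 120 against 81.1, 125 and 110 CPM (0.29, SE 0.17, adjusted p = 0.806), and Rpl12 had 13.5, 16.6 and 5.24 against 8.36, 8.31 and 8.06 (0.56, SE 0.38, adjusted p = 0.813), both with overlap. Without both libraries of replicate 3 these 3 genes gave -0.21, 0.37 and 0.90, with adjusted p-values of 0.548, 0.498 and 0.196 by edgeR.

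Whether the genotype difference itself differed between regions was tested with the interaction of genotype and region. No member passed, where 0% of all genes did, nor without both forebrain libraries of replicate 3, with DESeq2 again at 0 members, and 24 of 79 had an unadjusted p under 0.05, where 7.54% of all genes did. The smallest unadjusted p-values by edgeR were those of Rpl13a (0.00621), Rps4x (0.0136), Rps16 (0.0162), Rpl37a (0.0167) and Rplp1 (0.0216), all with an adjusted p of 0.66. Rpl13a had 422, 347 and 292 CPM in hindbrain of Fmr1CRE and 501, 478 and 415 in wild type, the opposite order from midbrain. Rps16, a 40S protein near the decoding site, had 46.1, 41.5 and 43.3 against 33.9, 38 and 40.1 CPM in midbrain and 56.8, 42.2 and 38.4 against 63.4, 61 and 54.7 in hindbrain. For both Rpl13a and Rps16 the groups were separated in midbrain and overlapped in hindbrain.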

How the data were processed

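Poly(A) RNA libraries of 3 regions of 6 mice were sequenced in single-end 50-base reads. The authors ran Salmon (0.14.0 in the submitters' processing notes, with the mm10 build) through bcbio_nextgen, and the deposited gene counts are its transcript estimates, added up by gene and given as whole counts. The annotation they used was not given in the sources used here. The authors' per-transcript files, in which estimated counts and TPM are deposited side by side, have names that disagree with their sample records and were used pooled over all 18 files, only for transcript lengths and isoform shares. The deposited variance-stabilised log2 values, made with DESeq2 1.30.1, and the authors' own comparisons were not used. No value column was left without a sample (0 columns).

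Symbols came from GENCODE M21 (53363 of 53468 identifiers). Counts were tested with edgeR 4.0.16 (TMM scaling, filterByExpr, quasi-likelihood F test) in R 4.3.3, with Benjamini-Hochberg adjustment at 0.05 over all genes tested: genotype within each region on 6 libraries, and region contrasts and the interaction on all 18 in 6 groups. CPM used TMM factors over 18 libraries and log2 CPM a prior count of 2. The scripts were tested on simulated data. Members not tested between regions were Rpl10l and Rpl39l. Some genes chosen by the rule below are not reported here, though they stay in all counts and medians. Libraries held 22455512 to 28061185 counts, and intervals cover the spread between these mice only, which number 3 a group.

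Genes were named by role (paralogs and their parents, structural groups, X-linked members), by level (5 highest and lowest per length), by fold change among the called (5 each way per region contrast, 3 relative to summed member counts) and by unadjusted p (3 per region by genotype, 5 for the interaction). The members, gene lists and this rule were chosen with earlier results of these data known. Alternatives were DESeq2 1.42.0, other scalings and count filters, 1 fit of all libraries, each genotype alone, each library left out, replicate blocks, and, added after the data were seen, near-identical copies (sharing over 50% of 31-base sequences) summed into members and a loess trend with length (span 0.5) removed.

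Libraries of the 3 regions share a mouse by design. The main region and interaction fits did not use this pairing. The mouse was fitted as a block only as an alternative, with its calls given below. Across the genotypes the replicate number gave deviations that correlated at -0.23 to 0.13 and is only a number.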

Additional observations from a re-analysis of the deposited data

How the results depend on the processing

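No alternative turned the direction of a called gene that was named for the size of its fold change. None made any member pass by genotype or interaction. Values of genes named only by role, such as the structural groups, were not followed through the alternatives. Of 455 values of genes named by fold change or p under settings other than leaving out a library, 411 kept their side of the threshold and 44 lost the call. Of 828 with a library left out 763 kept it and 65 lost it. Both totals include the genes named by genotype and interaction, which were not called in the main fit and so had no call to lose. Counts of called members depended on the samples and the scaling. Between forebrain and hindbrain there were 46 with total counts alone (1 higher, 45 lower; median -0.26, where the median of all genes moved by -0.14) and 8 in Fmr1CRE libraries only (5 higher, 3 lower; median -0.025), with a median of -0.22 in wild-type libraries only and 0.11 with the trend with length removed, which turned the direction. The split also moved to 2 higher and 24 lower with at least 10 counts in every library, to 4 and 15 with no filter, and to 1 and 23 in wild-type libraries. Between forebrain and midbrain there were 33 with total counts alone, 22 in wild-type and 2 in Fmr1CRE libraries only, with a median of 0.20 after the trend with length was removed. Between midbrain and hindbrain there were 21 in Fmr1CRE libraries only (median -0.29; -0.57 in wild-type libraries) and 30 with the length trend removed (median -0.084), which also took the hindbrain genotype median to -0.067. Both fits of 1 genotype hold the same number of libraries, fewer than the main fit. The cause of these and of the other changes was not tested. Relative to summed member counts, no filter gave 9, 2 and 2 calls for forebrain against hindbrain, forebrain against midbrain and midbrain against hindbrain, the second had 4 without both forebrain libraries of replicate 3, and the last had 17 with copies summed.

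With each library left out, the calls ran from 20 to 30 (forebrain against hindbrain), 44 to 61 (forebrain against midbrain) and 67 to 74 (midbrain against hindbrain), and relative to summed member counts 19 to 25, 3 to 7 and 8 to 14. The range of 3 to 7 was at 3 or 4 without forebrain Fmr1CRE replicate 1 or 2, any forebrain wild-type replicate, midbrain Fmr1CRE replicate 1 or 3, or midbrain wild-type replicate 1 or 2. Genotype medians ran from -0.023 to 0.094 in forebrain, 0.05 to 0.16 in midbrain and -0.30 to -0.16 in hindbrain. With the mouse as a replicate block, the calls were 19, 44 and 72 (relative: 23, 5 and 10) and the interaction had 0. With the replicate number as a replicate block, each genotype comparison had 0 called members and medians of 0.06, 0.09 and -0.22, and the pairing of numbers across genotypes changed no call. DESeq2 gave 29, 59 and 74, and summing copies 29, 64 and 74. Counting depth limits the lowest members only: Rpl10l had 0 counts, Rpl39l 39 and Rpl3l 182 over 18 libraries.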
